A study of Mus musculus with 262 samples.

Results

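Kit, the receptor tyrosine kinase also called c-Kit, and Kitl, its ligand (stem cell factor), were followed by symbol through every table of a study of the mouse kidney collecting duct. They are 2 genes of the 47069 in the TPM tables, and both are present in the count table of 24111 genes and the RPKM table of 29732 genes. All mice were male and 2 months old. The C57BL/6 groups were single cells, caught on a microfluidic chip after cell sorting, 2 bulk c-Kit sorts, 2 bulk DBA sorts and microdissected tubules, 11 from the cortical collecting duct (CCD) and 8 from the cortical thick limb of Henle's loop (cTAL). The authors named the cells as 87 type A intercalated, 23 type B intercalated, 74 principal, 19 proximal tubule and 32 non-epithelial cells. The strain Atp6v1b1GFP, whose name joins a proton pump subunit of intercalated cells to green fluorescent protein, gave 2 GFP-positive and 2 GFP-negative sorts. The labels give no more about that allele, name no animal for any cell and do not say whether animals were pooled. Where nothing says that samples of a group came from separate animals, p-values measure only the spread between these samples.

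Kit sits in the plasma membrane and forms dimers when Kit ligand binds, which switches on its kinase domain and recruits adaptors of the Ras and PI3-kinase pathways. The ligand is made as a membrane protein that can be cut free by proteases. The pair is best known from blood stem cells, mast cells, pigment cells and germ cells, and in the kidney Kit serves as a surface handle for intercalated cells, the acid and base secreting cells of the collecting duct. DBA is a lectin that binds the surface of principal cells, which reabsorb water and sodium, and PNA is a lectin used for type B cells. The c-Kit sort therefore picked cells by the product of one of the 2 genes described here.

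Both genes have alternative coding forms, and these are shown because the deposited values are sums per gene that do not tell the forms apart. In the GENCODE M21 annotation of GRCm38, Kit lies on the forward strand at chr5:75574916-75656722 with 2 protein-coding transcripts of 8. Kitl lies on the forward strand at chr10:100015630-100100416 with 4 protein-coding transcripts of 6. Transcript Kitl-202 holds exon 6 (chr10:100080857-100080940, 84 bases, 28 codons), which is known to encode the main site where the membrane-bound ligand is cut. Transcript Kitl-201 goes from the exon before it to the exon after it. Transcript Kit-201 ends its exon 9 with 12 bases (chr5:75639147-75639158, 4 codons) that Kit-204 lacks, in the part of the receptor just outside the membrane. The stretches below come from the GENCODE transcripts, are coding sequence on the sense strand with 15 bases on either side, and have the bases that only 1 transcript of the pair holds in capitals.

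Kitl-202: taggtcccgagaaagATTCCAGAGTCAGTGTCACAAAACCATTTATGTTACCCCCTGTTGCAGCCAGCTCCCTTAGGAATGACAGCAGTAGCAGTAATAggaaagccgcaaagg
Kitl-201: taggtcccgagaaagggaaagccgcaaagg
Kit-201: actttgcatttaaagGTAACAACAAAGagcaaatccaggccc
Kit-204: actttgcatttaaagagcaaatccaggccc

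Reads assigned to genes numbered 35530885 to 40815091 in the GFP samples. TPM and RPKM, the units of the other tables, both scaled to gene length and library size, keep no read depth, so the depth of the cells, the other sorts and the tubules is unknown. Of the markers fixed for the labels, 4 of 4 type A, 4 of 4 type B and 6 of 6 principal genes had their highest mean in their own single-cell type. For proximal tubule cells this held for 5 of 5 genes, and for non-epithelial cells for 6 of 6 macrophage and leukocyte genes. Whether the authors named the cells by these same genes is not known here, so the matches are no independent check of the names. Endothelial genes reached a mean of 10 TPM in 0 of 5 cases in non-epithelial cells and fibroblast genes in 0 of 4, while 5 of 6 leukocyte genes also reached it in type A cells.

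In single cells the receptor was highest in type A intercalated cells and the ligand in principal cells. Kit averaged 289.6 TPM in type A cells, with a median of 184 and a range of 0 to 1725 TPM. The quartiles of type A cells were 32.2 and 435 TPM, and 54 of 87 held at least 100 TPM. The other types had medians under 1 TPM, at 0.010 TPM in type B cells, 0.27 TPM in principal cells, 0.30 TPM in proximal tubule cells and 0.88 TPM in non-epithelial cells. Their means of 46.1, 43.5, 1.28 and 88.6 TPM, in that order, rested on few cells, since the 5 highest cells of each held 88.8%, 85.1%, 89.0% and 83.2% of the summed Kit of that type. In type A cells the 5 highest cells held 27.3%. No test was made between types, because cells are not replicates and each type counts as 1 sample.

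At a level of at least 1 TPM, Kit was found in 82 of 87 type A cells (94.3%, exact Clopper-Pearson 95% interval 87.1% to 98.1%). These and all later intervals cover counting error only. The share was 26.1% in type B cells (6 of 23, interval 10.2% to 48.4%) and 25.7% in principal cells (19 of 74, interval 16.2% to 37.2%). It was 46.9% in non-epithelial cells (15 of 32, interval 29.1% to 65.3%) and 10.5% in proximal tubule cells (2 of 19, interval 1.30% to 33.1%). The intervals describe the cells counted and were not used to compare types. The proximal tubule share is given as that of a type not known for Kit, but 11 of its 19 titles name a c-Kit sort, so it is not shown to be background. Type A cells contributed 54 of the 73 cells with at least 100 TPM of Kit, type B cells 6, principal cells 6, non-epithelial cells 7 and proximal tubule cells 0.

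**Figure D1:**
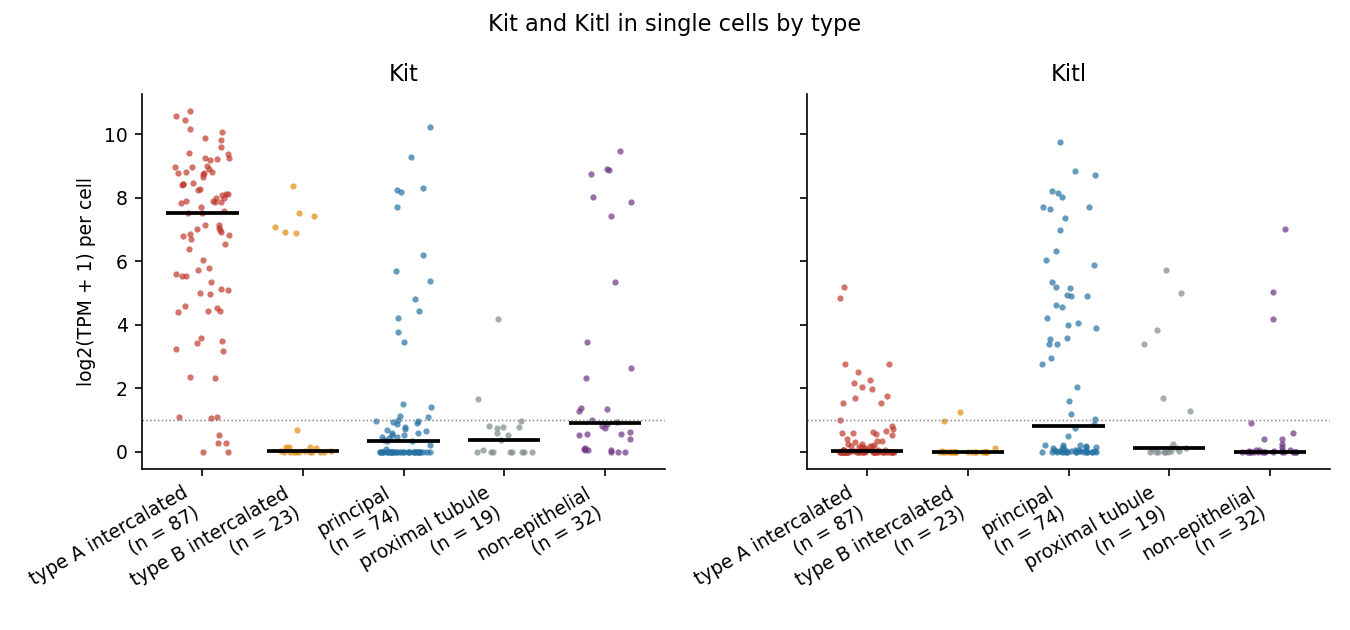
Kit (left) and Kitl (right) in each single cell, as log2(TPM + 1), by the authors' cell type. Each point is a cell, black bars are medians and the dotted line marks 1 TPM. The Kit median of type A cells (184 TPM) stands above the other types' medians, all under 1 TPM, and the cells with the most Kitl are principal cells.

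The sort that picked the cells bears on these shares. By their titles, 60 of the 87 type A cells came from a sort on DBA and c-Kit together, 25 from c-Kit alone and 2 from DBA. Of the 23 type B titles, 17 name PNA, 4 c-Kit, 1 DBA and 1 both. The 74 principal titles split into 37 with DBA and 37 with DBA and c-Kit, and the 32 non-epithelial titles into 18 with both, 10 with c-Kit and 4 with DBA. For proximal tubule cells the numbers were 9, 2 and 8. The columns of the table are not tied to titles, so Kit by sort within a type was not analysed here.

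Low Kit values also followed the running numbers of the columns. All 34 exact zeros among principal cells lay in columns 1 to 37, and each of the other 37 columns held some Kit, with a minimum of 0.060 and a median of 0.90 TPM. The 8 zeros of proximal tubule cells were columns 1 to 8, and the 11 later columns ran from 0.050 to 17.1 TPM. The 2 zeros of type A cells and the 3 of non-epithelial cells were likewise the first columns of their type. Type B cells differed, with 9 zeros between columns 1 and 19, all 6 cells with Kit in columns 2 to 9, and at most 0.11 TPM in the last 4 columns. Shares of cells above 0 TPM follow these runs and are given as an alternative alone. At 10 TPM or more, 3 of the first 37 principal columns and 11 of the last 37 held Kit. The last zero lay at column 37 of principal, 8 of proximal tubule and 2 of type A cells, and these types have 37, 8 and 2 titles with DBA alone. Non-epithelial cells had 3 zeros and 4 such titles, and type B cells 9 zeros and 1 such title. Whether the column order follows the sort labels was not tested, nor was the part of these runs in the shares.

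Kit-bearing cells of different types held different other markers. The 6 type B cells with Kit had at least 117 TPM of it, the others under 1 TPM. All 6 held at least 10 TPM of Slc26a4, the chloride-bicarbonate exchanger pendrin that marks type B cells, and 0 of 6 held as much of Slc4a1, the exchanger AE1 that marks type A cells. Among the 14 principal cells with at least 10 TPM of Kit, 14 held as much of Aqp2, the water channel of principal cells, and 10 held as much of Slc4a1. In the other 60 principal cells, 3 held Slc4a1 at that level. Aqp6, an intracellular water channel of type A cells, was at that level in 6 of the 14 and 1 of the 60.

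The 9 non-epithelial cells with at least 10 TPM of Kit all held as much of Ptprc, the leukocyte antigen CD45, and Cd74, the invariant chain of antigen-presenting cells, as did 20 and 23 of the other 23. Of these 9, 5 held Slc4a1, 6 Aqp6 and 5 the intercalated cell factor Foxi1, against 5, 3 and 3 of the other 23. Cpa3, the carboxypeptidase of mast cells, was below 10 TPM in all 9. So the Kit-bearing cells of the principal and non-epithelial types often held type A transcripts beside those of their own type, whose part in their Kit level was not tested. Such mixing was not limited to these types. Of the 74 type A cells with at least 10 TPM of Kit, 28 held as much of Aqp2 and 46 of Cd74, against 2 and 7 of the other 13.

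Mast cells carry Kit, and 1 cell column of the whole table held at least 100 TPM of Cpa3. That column was labelled type A and had 6459 TPM of Cpa3, 1073 TPM of Kit, 33.9 TPM of Slc4a1 and 0 TPM of Foxi1. Of the other mast cell markers on the list, it held 8032 TPM of the chymase Cma1, 4768 of Hdc and 924 of Fcer1a. Ms4a2 was at 2.91 TPM there, and Mcpt4, Tpsb2 and Tpsab1 were at 0. Without it the type A mean of Kit was 280.5 TPM in place of 289.6 TPM.

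Kitl was sparser than Kit in its leading type. It averaged 54.8 TPM in principal cells, with a median of 0.76, an upper quartile of 28.9 and a highest cell of 860 TPM. Elsewhere it averaged 5.79 TPM (proximal tubule), 5.65 TPM (non-epithelial), 1.25 TPM (type A) and 0.11 TPM (type B). The 5 highest cells held 57.1% of the summed Kitl of principal cells, 98.2% of that of proximal tubule cells and 99.4% of that of non-epithelial cells. At least 1 TPM was found in 36 of 74 principal cells (48.6%, exact interval 36.9% to 60.6%). The share was 31.6% in proximal tubule (6 of 19, interval 12.6% to 56.6%), 14.9% in type A (13 of 87, interval 8.20% to 24.2%), 9.38% in non-epithelial (3 of 32, interval 1.98% to 25.0%) and 4.35% in type B cells (1 of 23, interval 0.110% to 21.9%).

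The cells with much ligand were nearly all principal cells. Of the 36 cells with at least 10 TPM of Kitl, 28 were principal, 3 proximal tubule, 3 non-epithelial and 2 type A cells. Of the 12 cells with at least 100 TPM, 11 were principal and the other was a non-epithelial cell with 129 TPM. Kitl of type A cells was mostly at trace level, since 11 of the 13 cells with 1 TPM held under 10 TPM. The share of type A cells with at least 10 TPM was 2.30% (2 of 87, interval 0.280% to 8.06%). For type B cells it was 0 of 23, with an exact interval up to 14.8%.

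Receptor and ligand rarely stood high in the same cell. Over all types, 97 cells held at least 10 TPM of Kit alone, 29 of Kitl alone, 7 of both and 102 of neither. The 7 were 5 principal and 2 type A cells. The type A cells held 184 and 271 TPM of Kit with 35.2 and 27.6 TPM of Kitl. Of the 28 principal cells with at least 10 TPM of Kitl, 23 had under 10 TPM of Kit, as had 37 of the other 46. Within principal cells, low Kit was thus about as common with Kitl as without it. At 1 TPM, both were found in 12 of 87 type A cells (13.8%), 7 of 74 principal cells (9.46%) and 1 cell of each other type. Pearson's r between the 2 genes on log2(TPM + 1) was -0.17 over all cells of the 5 types, 0.18 over the type A cells and -0.01 over the principal cells. These are descriptions over cells that share a chip protocol, a scale and many zeros.

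**Figure D2:**
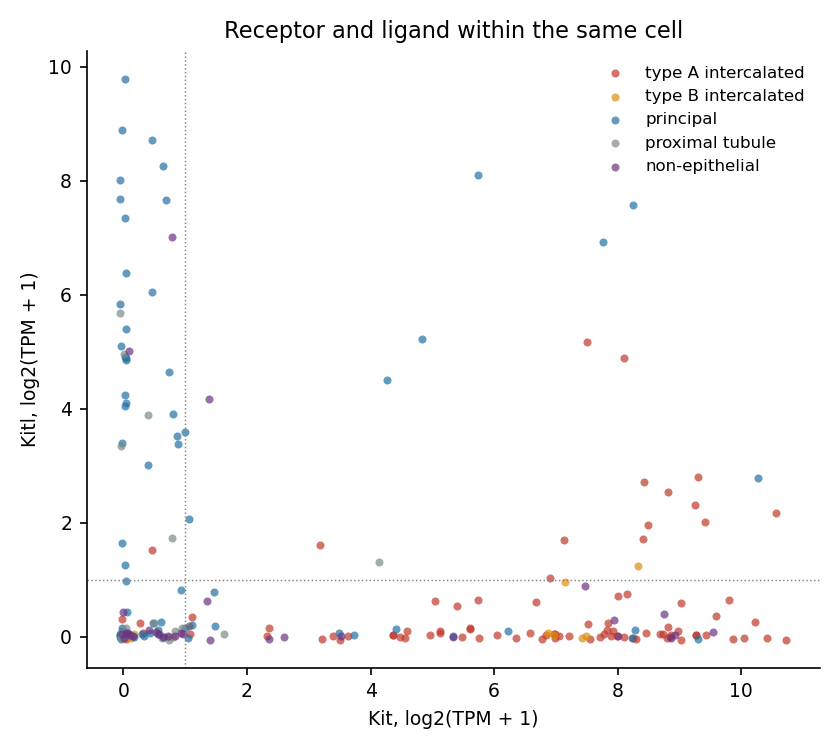
Kitl against Kit in the same cell, both as log2(TPM + 1), with 1 point per cell coloured by type and a small jitter. Dotted lines mark 1 TPM. Type A cells spread along the Kit axis and principal cells along the Kitl axis, and 7 cells held at least 10 TPM of both.

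The genes most like each member were ranked by Pearson's r on log2(TPM + 1) over all single cells, among 6565 genes. For Kit these were Adgrf5, an adhesion G protein-coupled receptor (r = 0.72), Slc4a1 (r = 0.72), the membrane peptidase Mme (r = 0.71), Aqp6 (r = 0.69) and the peptide-amidating enzyme Pam (r = 0.67). Adgrf5, Slc4a1 and Aqp6 are on the type A marker list. Their means in type A cells were 156, 195 and 121 TPM, with 35.8, 32.7 and 27.3 TPM in non-epithelial cells and 1.69, 0.32 and 6.82 TPM in type B cells. Over the type A cells alone the ranking led with Tfcp2l1, a transcription factor of collecting duct cells (r = 0.56), and all other genes were under 0.5.

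For Kitl over all single cells, 1 gene passed an r of 0.5, the caveolar coat protein Cav1 (r = 0.51). Cav1 averaged 561 TPM in principal, 244 in proximal tubule and 37.1 TPM in type A cells. Over the 74 principal cells the highest r of any gene with Kitl was 0.46 and no gene reached 0.5.

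The bulk c-Kit and DBA sorts checked the handle and gave the ligand. Kit was at 757 and 755 TPM in the c-Kit sorts and at 17.9 and 18.5 TPM in the DBA sorts. The groups lay far apart, a log2 difference of 5.30 (SE 0.06) on the scale of TPM plus 1. Kit protein chose these cells, so the difference checks the sort and supports nothing else. Kitl went the other way, at 4.77 and 4.47 TPM in the c-Kit sorts and 22.4 and 24.3 TPM in the DBA sorts. It was lower in both c-Kit samples, by a log2 difference of -2.12 (SE 0.13, limma adjusted p = 4.44e-05). With 1 sample left out at a time it ran from -2.17 to -2.06 and stayed called. Receptor outnumbered ligand by 159 and 169 to 1 in TPM in the c-Kit sorts, while in the DBA sorts the ratio was 0.80 and 0.76. Kit protein chose the c-Kit cells, so the Kit side of this ratio was set by the sort. The contrast of the ratios is given as a description and supports nothing about the pair.

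Of 14341 genes tested, 44.3% were called in this comparison at an adjusted p under 0.05, 16.1% higher and 28.1% lower in c-Kit. With quantile normalization the split was 3055 higher and 3072 lower in place of 2315 and 4033. A call for both members was thus common among all genes, and the sizes say more than the calls. Intercalated cell markers were higher in c-Kit in 4 of 4 cases on each of their 3 lists (type A, type B and shared), with a median difference of 4.97 for type A. Mast cell transcripts also moved with Kit. Of 6 mast cell markers tested, 5 were higher and 1 lower in c-Kit, and the summed level of the 8 on the list was 78.9 and 88.4 TPM against 11.8 and 12.3 TPM. Cpa3 was at 35.8 and 43.8 TPM against 0.13 and 0.17 TPM. Principal cell markers were lower in 6 of 6 cases, with summed levels of 2519 to 3392 TPM against 22287 to 24841 TPM, beside the fall of Kitl. Macrophage and leukocyte markers were lower in 6 of 6 cases, at 3780 to 4004 against 12525 to 13049 TPM. The part of these cells in the values of Kit and Kitl was not tested. In bulk samples, fewer cells of a type and less RNA per cell cannot be told apart.

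In the Atp6v1b1GFP strain both genes were higher in the GFP-positive sorts. Kit was at 677 and 718 CPM (reads scaled to library size, TMM-normalised) in GFP-positive and at 15.1 and 6.29 CPM in GFP-negative cells, from 25204 and 27226 against 645 and 215 reads. The log2 difference was 6.02 (SE 0.41, edgeR adjusted p = 4.70e-05), and the groups did not overlap. It was 6.79 without GFP-negative replicate 1. Here the sort used no Kit antibody. Kitl was at 65.0 and 74.3 CPM against 38.4 and 25.4 CPM, from 2419 and 2817 against 1639 and 869 reads. It was higher by 1.13 (SE 0.23, edgeR adjusted p = 0.00692) in both GFP-positive samples, and ran from 0.86 to 1.45 with 1 sample left out at a time.

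The Kitl result rested on the read counts. In the deposited RPKM it was at 6.55 and 10.5 in GFP-positive and 3.97 and 4.76 in GFP-negative samples, higher in both, but limma on log2(RPKM + 1) gave 0.80 with an adjusted p of 0.330. On the same scale per length, Kit was at 130 and 134 RPKM against 3.67 and 1.11 RPKM. Kit was thus 19.8 and 12.8 times Kitl in the GFP-positive samples and 0.93 and 0.23 times in the GFP-negative samples.

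Of 15671 genes tested, 32.6% were called, 15.2% higher and 17.3% lower in GFP-positive cells. Intercalated cell markers rose with Kit: 3 of 3 tested type A, 4 of 4 type B and 4 of 4 shared intercalated markers were higher, with median differences of 6.40, 6.90 and 6.31. Macrophage and leukocyte markers were lower in 6 of 6 cases and endothelial markers in 5 of 5. Principal cell markers were higher in 6 of 6 cases, at summed levels of 772 to 1355 CPM against 190 to 216 CPM, as were 4 of 4 distal convoluted and connecting tubule markers. Proximal tubule markers were lower in 5 of 5 cases, at 2318 to 3551 against 18912 to 19974 CPM. Of the mast cell markers, Cpa3, Cma1, Mcpt4, Tpsb2, Tpsab1, Ms4a2 and Fcer1a were at 0 in both GFP-positive samples, where Kit was highest. Hdc, the histamine-forming enzyme, was lower there, at 12.4 and 24.3 CPM against 58.7 to 108 CPM. The part of principal and distal cells in the Kitl difference was not tested.

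**Figure D3:**
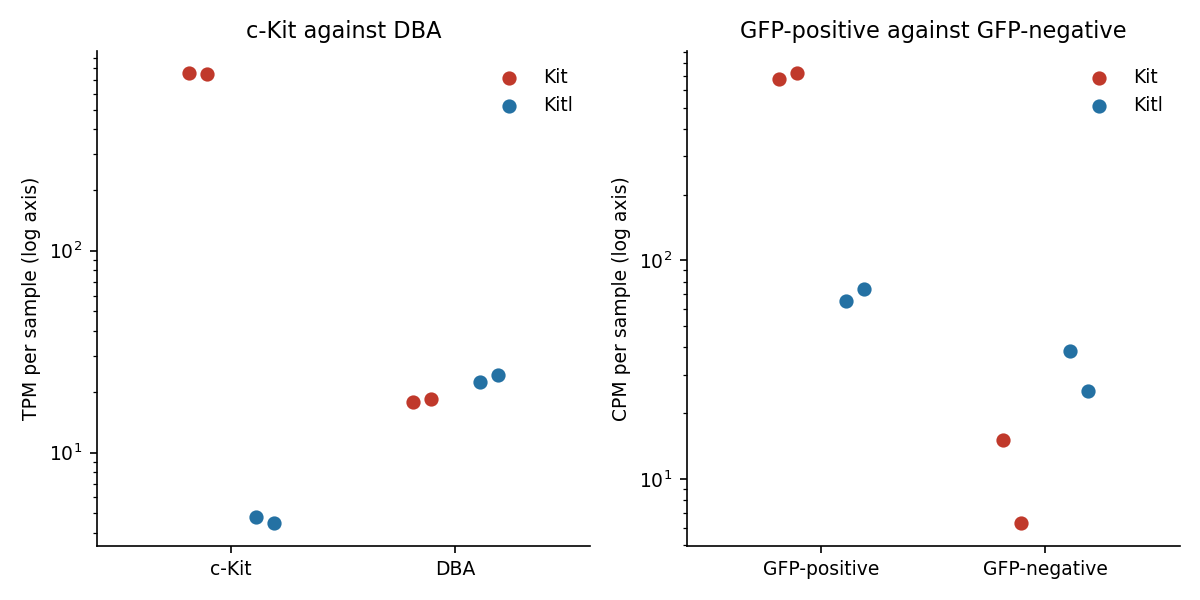
Kit (red) and Kitl (blue) in each bulk sort on log axes, in TPM for the c-Kit and DBA sorts (left) and in CPM for the GFP sorts (right), with 2 samples per group. Kitl is lower in c-Kit (4.47 and 4.77 TPM) than in DBA (22.4 and 24.3 TPM), and higher in GFP-positive (65.0 and 74.3 CPM) than in GFP-negative samples (25.4 and 38.4 CPM).

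Kitl thus differed in opposite directions in the 2 sorts, lower in c-Kit than DBA and higher in GFP-positive than GFP-negative cells. Principal cell markers went the same way as Kitl in each, lower in c-Kit than DBA and higher in GFP-positive than GFP-negative cells. Intercalated, distal convoluted and connecting tubule markers were also higher in GFP-positive cells, and intercalated markers were higher in c-Kit, where Kitl was lower. The part of any of these cells in the Kitl differences was not tested. The tables were normalised separately, so the differences were not tested against each other.

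Among microdissected tubules, which hold the segment with its cells in place, Kit separated CCD from cTAL without overlap. In the 11 CCD tubules Kit had a lowest value of 58.0, a median of 149 and a highest value of 238 TPM. In the 8 cTAL tubules it had a lowest value of 0.040, a median of 0.14 and a highest value of 0.33 TPM. On log2(TPM + 1) the means were 7.12 ± 0.60 (SD, n = 11) and 0.21 ± 0.12 (SD, n = 8). The difference was 6.92 (SE 0.29, limma adjusted p = 9.30e-15).

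Kitl had a lowest value of 0.12, a median of 11.2 and a highest value of 19.7 TPM in CCD. In cTAL it was at 0 in 3 tubules, between 0.020 and 0.040 in 3, and at 1.14 and 1.92 TPM in the other two. The groups overlapped, since the CCD tubule m2_CCD2 held 0.12 TPM, less than the 2 highest cTAL tubules, and m6_CCD1 held 1.87 TPM. The other 9 CCD tubules held 5.36 to 19.7 TPM, above every cTAL tubule. The log2 means were 3.06 ± 1.26 (SD, n = 11) and 0.35 ± 0.61 (SD, n = 8), a difference of 2.71 (SE 0.50, limma adjusted p = 2.79e-04). Without m2_CCD2 it was 3.00. These sizes depend on the constant added to TPM: with 0.1 in place of 1, Kit differed by 9.16 and Kitl by 4.88, and with 5 by 4.80 and 1.31.

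The tubule m2_CCD2 was low in Kitl while its Kit, at 136 TPM, was close to the CCD median. It also stood apart more widely, since 3078 genes in place of 2526 were called between the segments without it. In the 11 CCD tubules Kit was 8.80 to 42.4 times Kitl, except in m2_CCD2, where 0.12 TPM of Kitl gave a ratio of 1136. In cTAL the ratio was 11.0, 5.00 and 4.25 in 3 tubules and 0.079 and 0.099 in 2, and could not be formed in the 3 with Kitl at 0. These values overlap those of CCD and rest on levels of at most 0.33 TPM of Kit, so no ratio is read from cTAL. A test of the ratio with 1 added to each gene had been planned, but in cTAL the added constant sets that ratio near 1, and its result is not used.

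In an exact two-sided permutation test over the 75582 relabellings of the tubules, the difference in Kit had p = 2.65e-05, the smallest value they can give, and 3.97e-05 adjusted over 3 tests. Kitl had an exact p = 1.32e-04 in this permutation test, before and after adjustment. The prefixes m1 to m7 of the column names, which no source used here explains, are shared by tubules that may come from 1 animal. With 1 mean per prefix and segment, chosen after seeing the column names, Kit differed by 7.00 and Kitl by 2.77 (limma adjusted p = 1.23e-09 and 0.00505).

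Of 13520 genes tested, 18.7% were called between the segments, 13.2% higher and 5.5% lower in CCD (1782 and 744 genes, or 1221 and 1244 with quantile normalization). The median log2 difference of all genes tested was 0.31, so both members stood above it, and with quantile normalization they differed by 5.88 and 2.21. Markers of the segments were clear: 6 of 6 principal, 4 of 4 type A and 4 of 4 type B markers were higher in CCD, and 5 of 5 thick ascending limb markers lower. Among mast cell markers, Cma1, Mcpt4, Tpsb2 and Fcer1a were at 0 in all 19 tubules and Cpa3 in all 11 CCD tubules. Of the other 3 on the list, Tpsab1 reached 13.1, Hdc 3.87 and Ms4a2 0.16 TPM in a CCD tubule. The summed level of the 8 ran from 0 to 13.1 TPM in CCD and from 0 to 4.64 TPM in cTAL, and its part in Kit was not tested.

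**Figure D4:**
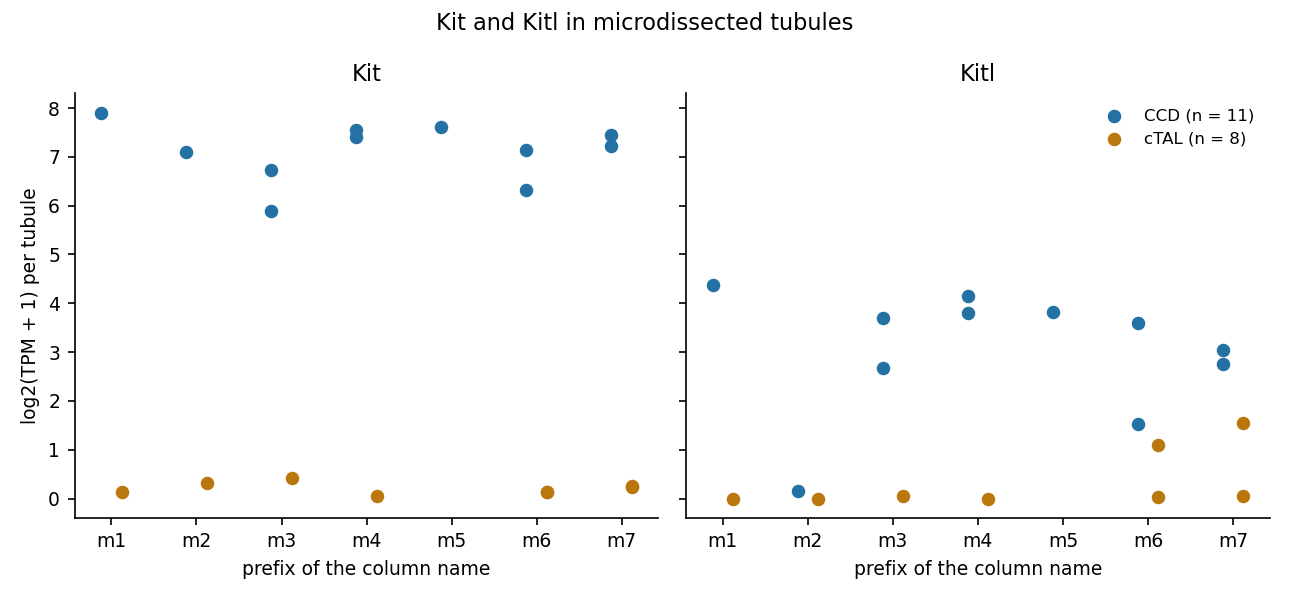
Kit (left) and Kitl (right) in each tubule as log2(TPM + 1), by the prefix of the column name, for 11 CCD (blue) and 8 cTAL (brown) tubules. Every CCD point for Kit (58.0 to 238 TPM) lies above every cTAL point (at most 0.33 TPM), and for Kitl 1 CCD tubule of m2 (0.12 TPM) and 1 of m6 (1.87 TPM) lie among the cTAL values.

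The genes most like the members over the 19 tubules were, for Kit, Sh2d4b, Parm1, Npy6r, the insulin receptor relative Insrr, and the vasopressin receptor Avpr1a, with r between 0.995 and 0.998 among 7954 genes. They averaged 18.1, 36.7, 61.8, 199 and 161 TPM in CCD and at most 0.17 TPM in cTAL. All 5 were high in CCD and near 0 in cTAL, as Kit was. Among single cells their levels lay in different types: Insrr averaged 146 TPM in type B and 10.4 in type A cells, and Npy6r 57.6 TPM in principal and 3.72 in type A cells. Avpr1a was highest in type A cells, as Kit was, at 89.1 TPM beside 77.9 in type B cells. Parm1 averaged 56.1 TPM in type B and 24.5 in type A cells, and Sh2d4b 15.7 and 0.19 TPM. For Kitl the highest were the carboxylesterase Ces1e (r = 0.95), the phospholipase Plcg2 (r = 0.94), the adenosine receptor Adora1 (r = 0.94), the phosphodiesterase Pde3b and the tubulin Tuba1b (r = 0.93 for both).

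The relatives of Kit among the class III receptor tyrosine kinases had other patterns. The list holds Kit, the platelet-derived growth factor receptors Pdgfra and Pdgfrb, the macrophage receptor Csf1r and the blood progenitor receptor Flt3. Of the 5 tested in GFP-positive cells, 1 was higher (Kit) and 2 lower (Csf1r and Pdgfra), where 15.2% and 17.3% of all genes were. Without GFP-negative replicate 2, 3 were lower. In c-Kit, Kit was the handle of the sort and is not counted. Of the 3 relatives tested there, 1 was higher (Flt3) and 2 lower (Csf1r and Pdgfrb), where 16.1% and 28.1% of all genes were. Csf1r was lower in both sorts where Kit was higher, by -2.52 in c-Kit (321 TPM in DBA) and by -2.46 in GFP-positive cells. It averaged 113 TPM in non-epithelial cells and 0.70 TPM in type A cells. Flt3 was higher in c-Kit, at 5.06 and 6.83 against 0.18 and 0.26 TPM (limma adjusted p = 2.72e-04), and was found at 1 TPM in 2 single cells, both non-epithelial. Between CCD and cTAL, 1 of the 4 kinases tested was called, which was Kit, where 18.7% of all genes were.

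Among the 8 ligands of this receptor class, Kitl and Csf1, the ligand of Csf1r, were the 2 higher in CCD, and 4 were lower, against 13.2% and 5.5% of all genes. Csf1 was at 11.6 TPM in CCD and 0.80 TPM in cTAL (2.68, limma adjusted p = 5.58e-04), with groups that overlapped. The ligands lower in CCD were Pdgfa, Pdgfc, Pdgfd and Il34, led by Pdgfd with 58.5 TPM in cTAL and 1.00 TPM in CCD (-5.04). These stayed 4 without m2_CCD2, m4_cTAL1, m6_CCD1, m6_CCD2 or m7_cTAL1, and became 3 without any other single tubule. They were also 3 with 0.1 added to TPM, no filter, a block on the prefix or 1 mean per prefix and segment. In c-Kit sorts 0 of 8 were higher and 4 lower, which were Kitl, Pdgfb, Csf1 and Il34, against 16.1% and 28.1% of all genes. With quantile normalization 2 of the 7 ligands other than Kitl were higher and 3 lower. In GFP-positive cells 1 was higher, Kitl, and 2 were lower, Pdgfb and Pdgfc, against 15.2% and 17.3% of all genes. Without GFP-negative replicate 1 or either GFP-positive replicate 0 of them stayed lower, and without GFP-negative replicate 2 it was 1.

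The genes that carry the Kit signal inside the cell were counted in each comparison. Of the 21 adaptors, kinases and effectors on the list, 2 were higher and 1 lower in GFP-positive cells, against 15.2% and 17.3% of all genes. The 2 were Pik3r1, the regulatory subunit of PI3-kinase (1.19), and the kinase Map2k1 (0.73), and Stat5b was lower (-0.77). The count lower was 0 without replicate 1 of GFP-negative or replicate 2 of GFP-positive and 2 without GFP-negative replicate 2, and the count higher was 1 without either replicate 2. In c-Kit sorts 1 was higher, Hras (0.34), and 7 were lower, against 16.1% and 28.1% of all genes. That count fell to 2 without DBA replicate 1 and to 1 without DBA replicate 2, when Hras also lost its call. Of the 20 tested in tubules, 2 were higher in CCD, against 13.2% of all genes, and 0 were lower, against 5.5%. These were the Src family kinase Fyn, at 38.0 against 0.90 TPM (4.54, limma adjusted p = 1.80e-09), and Hras (0.94). Without m2_CCD2, 4 were higher. Quantile normalization gave 3 higher and 2 lower, and sample weights 6 and 1. Without m1_CCD1, m1_cTAL1, m3_cTAL1 or m7_cTAL2, 1 was lower, and without m1_cTAL1 or m3_CCD1, 3 were higher. The median difference of the list was 0.16 in GFP, -0.12 in c-Kit and 0.16 in CCD, beside 0.02, -0.11 and 0.31 over all genes.

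Among 11 genes grouped here as brakes on Kit signalling, the adaptor Grb10 was higher in all 3 comparisons. Whether each of the 11 acts as a brake on Kit was not tested. It was at 51.9 and 56.2 against 7.59 and 7.79 TPM in c-Kit (2.66, limma adjusted p = 8.29e-06), 157 against 48.9 CPM in GFP-positive cells (1.68, edgeR adjusted p = 3.07e-04) and 4.86 to 27.8 against 0.020 to 5.68 TPM in CCD (3.10, limma adjusted p = 1.90e-05), where the groups overlapped. Type A cells averaged 87.8 TPM of Grb10, type B cells 67.6 TPM, and the others at most 1.73 TPM. The ubiquitin ligase Cbl went in opposite directions, by 0.67 in GFP-positive and -0.56 in c-Kit cells. The phosphatase Ptpn6 was lower in c-Kit (-0.96) and averaged 159 TPM in non-epithelial cells. In all, 2 of 10 tested genes of this list were higher and 2 lower in GFP-positive cells, 1 of 11 higher and 6 lower in c-Kit, and 1 of 10 higher in CCD. Among all genes 15.2% were higher and 17.3% lower in GFP-positive cells, 16.1% and 28.1% in c-Kit, and 13.2% higher in CCD. The 1 in CCD became 2 without m1_CCD1, m2_CCD2, m3_CCD1 or m6_cTAL1 and 3 with sample weights. Without DBA replicate 1 or 2, the 6 became 4. In GFP the 2 lower calls, Sh2b3 and Spred1, became 0 without GFP-negative replicate 1 or either GFP-positive replicate and 1 without GFP-negative replicate 2. The 2 higher became 1 without replicate 2 of GFP-negative or replicate 1 of GFP-positive.

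The transcription factors that control Kit in mast cells, blood and pigment cells were followed as a list of 7. Gata1 and Myb were too low to be tested in any comparison. Gata2 was high in the collecting duct, at 151 TPM in CCD against 0.29 TPM in cTAL (6.90, limma adjusted p = 3.36e-16), but its place among cells was not that of Kit. It averaged 466 TPM in principal and 97.3 TPM in type A cells, was lower in c-Kit than DBA (-1.64) and was higher in GFP-positive cells (2.31). Mitf, the pigment and mast cell factor, was higher in GFP-positive cells (1.51) and was not called in the other comparisons (-0.07 in c-Kit, -0.54 in CCD). Etv1 was lower in both sorts (-1.17 and -0.75), as was Lmo2 (-2.46 and -1.07). In all, 2 of 5 tested were higher and 3 lower in GFP-positive cells, 0 of 4 higher and 3 lower in c-Kit, and 1 of 3 higher in CCD. Among all genes 32.6%, 44.3% and 18.7% were called in these comparisons. The 3 lower in GFP became 1 without replicate 1 of GFP-negative or replicate 2 of GFP-positive. The 3 lower in c-Kit became 1 without DBA replicate 2 and 2 without DBA replicate 1 or c-Kit replicate 2.

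Of 3 proteases known to release membrane Kit ligand, Adam17 was the one well above the floor. It was at 22.6 TPM in CCD and 16.9 TPM in cTAL, and was not called (0.26, limma adjusted p = 0.803). In c-Kit sorts all 3 were lower, where 28.1% of all genes were. Adam17 was at 29.4 and 29.5 against 40.2 and 45.1 TPM (-0.52) and Adam33 at 1.40 against 9.97 TPM (-2.19). Adam17 was at 1 TPM or more in 18 of 87 type A, 15 of 74 principal and 14 of 32 non-epithelial cells. Mmp9 was listed at 0 TPM in every single cell. It was lower in GFP-positive cells, at 0 and 0.079 CPM against 0.50 and 0.89 CPM, a call that was lost when any 1 of the 4 samples was left out.

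**Figure D5:**
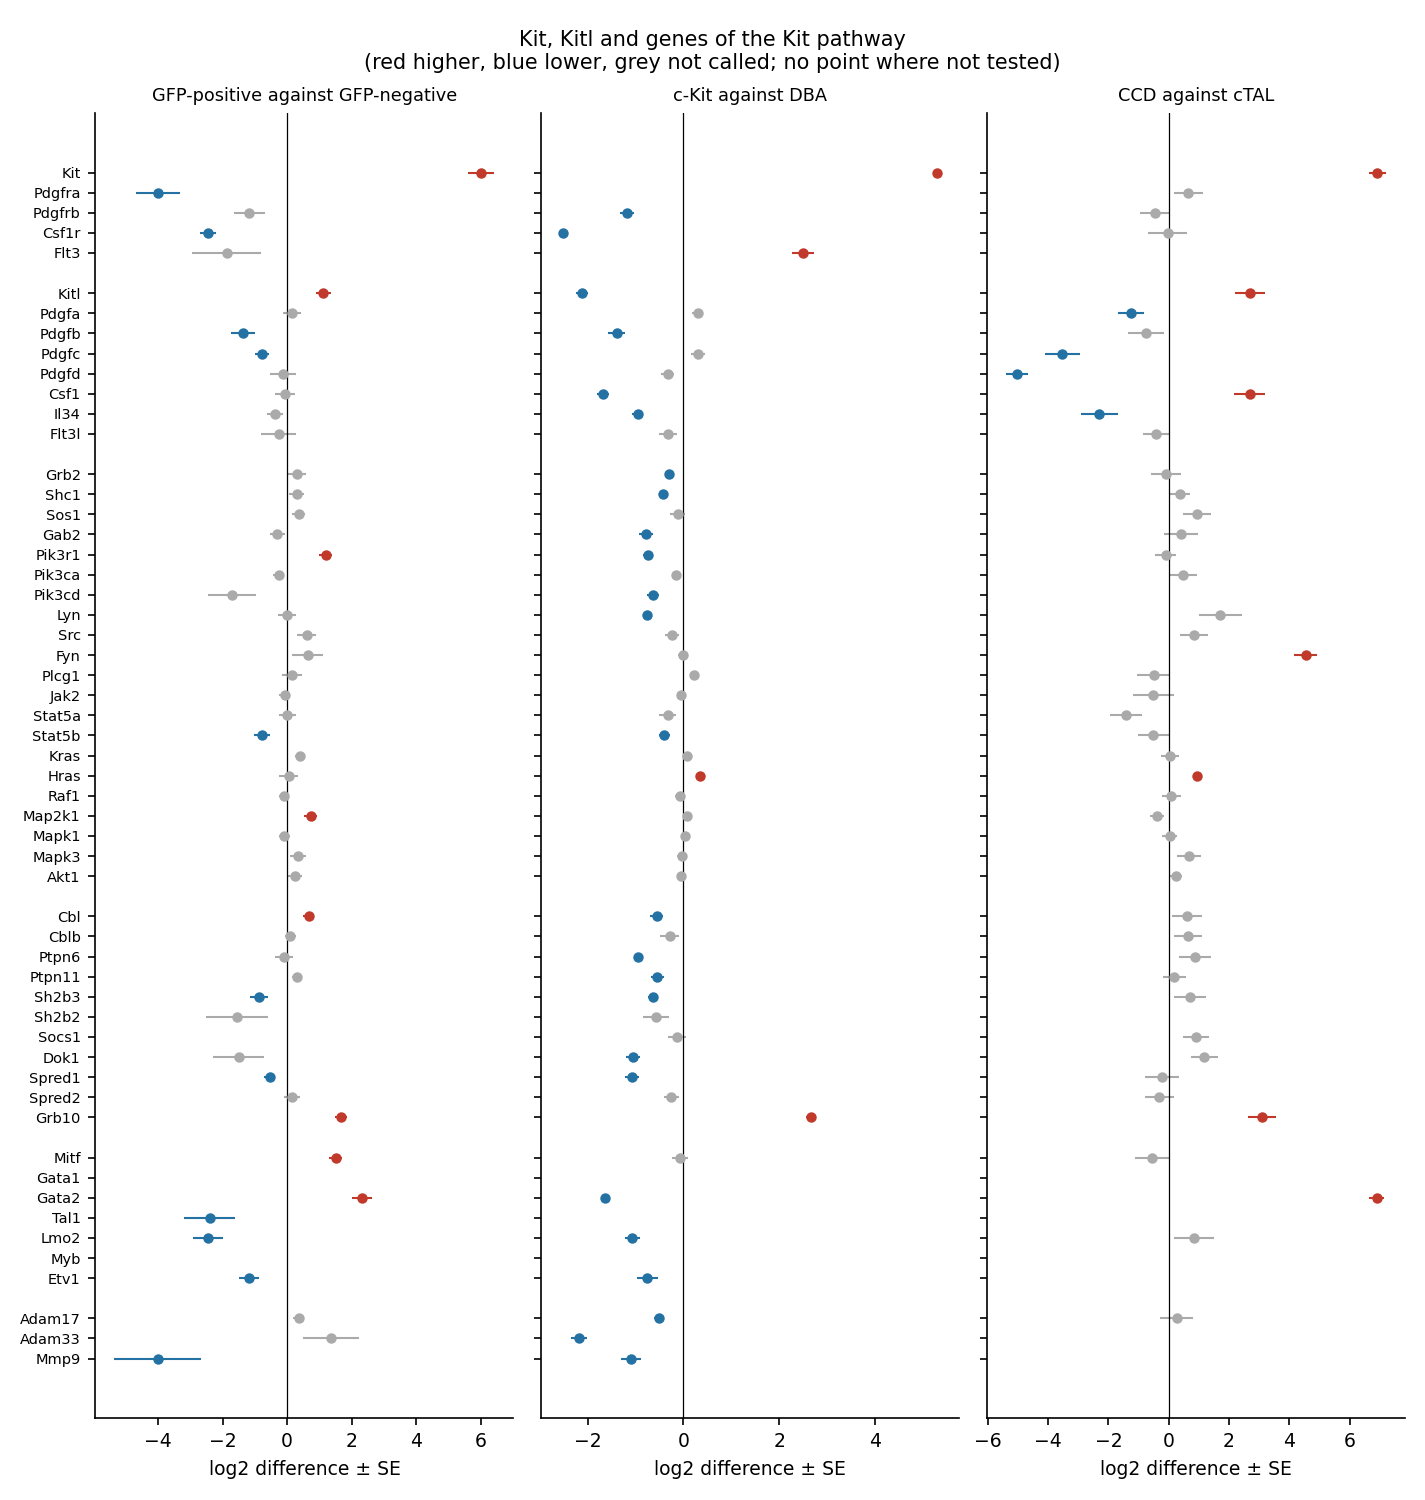
Log2 difference with its SE for Kit, Kitl and the genes of the 6 pathway lists in the 3 comparisons, where positive is higher in GFP-positive, c-Kit or CCD. Red and blue points passed an adjusted p of 0.05 and grey points did not. Kit and Grb10 are red in all 3 panels, and Kitl is red, blue and red.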

How the data were processed

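Per the submitters' processing notes, STAR 2.5.1b, RSEM 1.2.31, Seurat and the build GRCm38.p5 were used, with no role given. The authors deposited TPM for cells, c-Kit and DBA sorts and tubules. The tubule file does not name its unit, taken as TPM because its columns have the same sum within rounding. For the GFP sorts the authors deposited read counts and RPKM, made on RefSeq mm10 as the names of the deposited files say. Rows of the count table that name no gene held 66.7% to 72.8% of reads and were left out.

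Counts were tested with edgeR 4.0.16 (TMM, filterByExpr, quasi-likelihood). TPM was tested with limma 3.58.1 (trend) on log2(TPM + 1), keeping genes whose mean reached 1 TPM. Adjusted p-values (Benjamini-Hochberg) cover all genes tested, and a call is one under 0.05. Alternatives used DESeq2 1.42.0, RPKM, other constants, filters and normalizations, sample weights, blocks and left-out samples, in R 4.3.3 and Python 3.11.15 (scipy 1.17.1). The fits were run on simulated data with the same noise for every gene and changes placed only in genes well above the floor. That run does not cover low or more variable genes, such as Kitl in tubules. Cell types are the authors' column names, all deposited cells were kept, and no doublet caller was run. Kit, Kitl, every gene of the pathway and marker lists, and up to 5 genes most like each member with r of at least 0.5 could be named. The members and lists were chosen with earlier results of these data known. Gene positions and transcript sequences come from GENCODE M21 (GRCm38), which may differ from the annotation the authors used.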

Additional observations from a re-analysis of the deposited data

How the results depend on the processing

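Kit kept its direction and call under 11 alternatives in each sort and 28 in tubules, and Kitl under 11 in c-Kit and 27 in tubules. Kitl in GFP kept its call under 9 of 11. With limma on RPKM it was 0.80, and 0.80 with a replicate block on the experiment, neither called, and genes called fell from 5101 to 1639 and 2157. With a replicate block on counts Kitl was 1.15 (edgeR adjusted p = 0.00116) and 5897 genes were called. The RPKM columns name a first and a second experiment, each with a GFP-positive and a GFP-negative sample, but these are not tied to the replicate numbers. Deviations of same-numbered samples correlated at 0.026 in c-Kit and DBA and 0.14 in GFP, and at 0.015 to 0.16 for tubule prefixes. With 2 samples per group in the sorts, such values cannot show that samples were unpaired. The main fits took no pairs. The block changed no call of Kit or Kitl. Genes called between c-Kit and DBA ran from 3458 to 5701 with 1 sample left out, and between CCD and cTAL were 4401 with sample weights. The cause of these shifts was not tested. Kitl in tubules could not be tested with a mean of at least 10 TPM.

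Shares of cells depended on the level used. Zeros of Kit followed the column numbers, so shares above 0 TPM are not compared between types. Above 0 TPM, Kit was in 60.9% of type B, 54.1% of principal, 57.9% of proximal tubule and 90.6% of non-epithelial cells. Kitl was then in 55.2% of type A, 79.7% of principal, 68.4% of proximal tubule and 46.9% of non-epithelial cells. Both were in 54.0%, 44.6%, 42.1% and 40.6% of these 4 types. At 10 TPM, Kit was in 85.1% of type A and 28.1% of non-epithelial cells, Kitl in 2.30% of type A and 0% of type B, and both in 2.30% of type A and 0% of type B, proximal tubule and non-epithelial cells.

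Over 143 pairs of a list gene and a comparison, 2122 of 2258 alternative values kept the state of the main fit, called or not called. A call was lost in 105, gained in 31 and reversed in 0. The 2122 include genes that were called in neither fit, so the 105 are not to be read as a share of 2258. With TPM and RPKM the depth is unknown, so the counting error of low levels such as Kit in cTAL cannot be given. With limma on RPKM, 1 higher and 0 lower calls were left in GFP for both the signalling list and the list of brakes, and 0 for the ligands.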
